A study of Danio rerio with 9 samples.

Results

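Untreated wild-type zebrafish larvae at 5 days post fertilization (dpf) were profiled here as 3 pools of whole animals, Ctrl1, Ctrl2 and Ctrl3, which are 3 of the 9 libraries of the series. The members were taken by their label, as the non-microinjected control group, and earlier results of these data were known. The larvae were of the AB strain, carried no transgene or injected compound, and were raised at 28 °C from parents 8 months old. Each pool held 12 larvae. The other 6 libraries came from larvae microinjected with sialylated oligosaccharides of human or bovine milk, and no value of theirs entered the results. No Ctrl pool had received an injection of saline, and the hour of collection is not given in the sources used here.

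At 5 dpf the zebrafish larva is a hatched, swimming animal. Its trunk is mostly skeletal muscle, its eyes are large for its body and already guide movement, and its liver, pancreas and gut are taking over from the yolk as the source of nutrients. RNA of the whole body therefore mixes many tissues, and the level of a marker gene reflects both how many cells of a type there are and how much of the RNA each of them holds. In such bulk samples fewer cells of a type and less RNA per cell cannot be told apart.

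Levels are in TPM (the share of a gene among all transcripts, scaled to a fixed total), the unit deposited by the authors, which divides reads by gene length and by the library total. Levels of different genes can therefore be set side by side, whereas depth is not kept, so no counting interval can be given. Between 25205 and 25305 genes were above 0 in a pool, and 18143 genes reached at least 1 TPM in all 3 pools. Of these, 714 reached at least 100 TPM in every pool and 171 at least 1000 TPM. The 3 pools are a single group with no contrast, so no test was run, and spreads are SDs over n = 3 pools.

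The baseline transcriptome was concentrated in few genes. The 10 most abundant genes held 14.2%, 14.2% and 15.6% of all TPM in Ctrl1, Ctrl2 and Ctrl3 (14.7% ± 0.804), and the 100 most abundant held 46.7% ± 1.26. The 1000 most abundant held 79.4% ± 1.2. Of the 100 most abundant genes, 57 encoded proteins of the cytosolic ribosome, 14 were genes of fast skeletal muscle, and 9 were encoded in the mitochondrial genome.

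Calcium handling and contraction of fast muscle led the ranking. Parvalbumins are calcium-binding proteins that speed the relaxation of fast muscle fibres, and pvalb2 was the most abundant gene, at 32363 TPM in Ctrl1, 27108 in Ctrl2 and 32152 in Ctrl3. On its own it held 3.05% ± 0.298 of all TPM. Its paralog pvalb1 stood second at 20159.7, 18397 and 21687 TPM. The third, the tropomyosin gene tpma, whose product lies along the thin filament, had 18409, 13815 and 17347 TPM.

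Other parts of the fast sarcomere followed. The skeletal actin gene actc1b had 12105 TPM in Ctrl1, 11387 in Ctrl2 and 6468 in Ctrl3, so that Ctrl3 was well below the other pools. MYL11, the name-table symbol of the fast regulatory myosin light chain, varied much less, with 9791, 9063 and 10609.8 TPM. Troponin T of fast muscle (TNNT3) had a mean of 6551 ± 459.9 TPM. The alkali light chain gene MYL1, the fast myosin heavy chain gene myhz1.1 and ckma, the muscle creatine kinase that buffers ATP, had means of 5549 ± 1016, 4579 ± 877 and 4373 ± 581 TPM. All 3 were lowest in Ctrl3, as was actc1b.

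The mitochondrial genome supplied 6 of the 30 most abundant genes. The cytochrome c oxidase subunit genes MT-CO2, MT-CO1 and MT-CO3, which belong to the last complex of the respiratory chain, had means of 14895 ± 1960.3, 13364 ± 434 and 11874 ± 262 TPM. Their neighbour mt-atp8, a small subunit of the ATP synthase, had 4199 TPM in Ctrl1 against 14988 in Ctrl2 and 16318 in Ctrl3. Its partner MT-ATP6 did not show that gap, with 6567, 7144 and 7935 TPM. In vertebrates the reading frames of mt-atp8 and MT-ATP6 overlap, so the division of reads between both genes is uncertain.

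Ribosomal protein genes were the largest list by far. Its 82 genes all reached 1 TPM in every pool, and they held 21.8%, 19.5% and 22.3% of all TPM. RPS29, RPS2, RPL39 and RPS12 led the list with means of 6082, 5641, 5546 and 5131 TPM. The gene si:dkey-151g10.6, for which RefSeq records rpl41 as a synonym, was outside the list and higher than any of them, with 7425, 7035 and 8521 TPM. The elongation factor gene eef1a1l1, which brings aminoacyl-tRNA to the ribosome, had 6766, 6162 and 5199.9 TPM.

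Skin, nucleotide supply and a set of features high in Ctrl2 completed the ranking. The epidermal keratin genes cyt1 and krt4 had means of 5240.0 ± 578 and 4601 ± 585 TPM. The nucleoside diphosphate kinase gene nme2b.2 had 5252 TPM in Ctrl1, 4624 in Ctrl2 and 3040.4 in Ctrl3. The 4 remaining features were si:dkey-153m14.1, zgc:158463, si:dkeyp-3b12.15 and ENSDARG00000111458, which owed their rank to Ctrl2 and are described with the differences between pools.

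**Figure D1:**
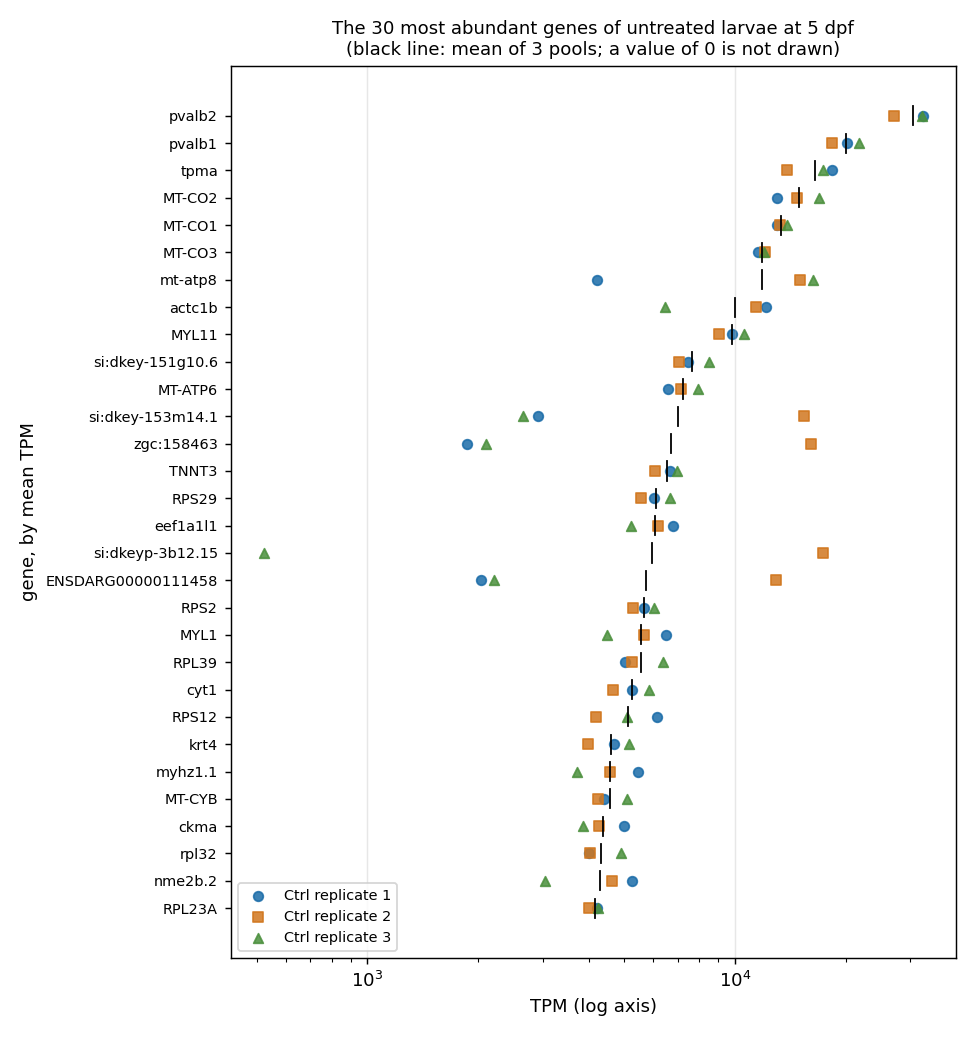
TPM (log axis) of the 30 genes of largest mean TPM in untreated larvae, with 1 symbol per pool and a black line at the mean. The 3 pools lie close together for most genes, whereas mt-atp8 is low in Ctrl1 and 4 features are high only in Ctrl2, among them zgc:158463 with 16120.2 TPM against 1872 and 2107.

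The share of TPM of each gene list gives an outline of the body. Lists of marker genes were compiled by name for 38 tissues, cell types and functions. The share is that of the transcripts of the listed genes, not of cells. Fast skeletal muscle held 15.1%, 12.9% and 13.6% of TPM in Ctrl1, Ctrl2 and Ctrl3, and all 51 genes matched to it were at or above 1 TPM in every pool. Slow muscle, the fibre type that lies at the surface of the larval trunk, held 0.112% ± 0.0172. Its leading genes were TPM2 at 343 ± 73.0 TPM, tpm3 at 267 ± 46.3, TNNC1 at 222 ± 32.9 and smyhc1, the slow myosin heavy chain, at 196 ± 24.5.

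The heart made a small part. Its list held 0.0335% ± 0.00517 of TPM, and 0.0169% without actc1a. MYL7, the atrial and ventricular regulatory light chain of zebrafish, had 27.0, 42.4 and 45.8 TPM and MYH6, the atrial heavy chain, 18.8 ± 0.804. The genes actc1a and MYBPC3 had higher means, 167 and 68.3 TPM, and both were highest in Ctrl1.

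The eye stood out among the tissues. The lens list held 4.33%, 4.55% and 4.75% of TPM, the largest share of any single tissue after fast muscle. Crystallins are the proteins that make the lens clear and refractive, and 26 genes of the gamma M crystallin group crygm2 alone held 2.93%, 2.97% and 3.31%. The highest were crygm2d8 at 2553, 2649 and 2914 TPM and crygm2d13 at 2343, 2625 and 3058. These genes are near copies of each other, so the level of a single copy is uncertain where the counting divides shared reads.

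Photoreceptor genes held 1.77%, 1.48% and 1.51% of TPM. The list was led by pde6ha, the inhibitory subunit of the cone phosphodiesterase, at 3730.1 ± 148 TPM, and by a cone transducin gamma gene (GNGT2) at 2392 ± 239. Of the visual pigments, the ultraviolet opsin (OPN1SW in the name table) had 2436, 1846 and 1737 TPM and the blue opsin opn1sw2 had 724, 559 and 628. A single member of each tandem array carried most of the red and green opsin signal. The red opsin opn1lw2 had a mean of 1577 TPM against 1.81 for opn1lw1. Among the green opsins, opn1mw1 had a mean of 916 TPM and opn1mw2 78.2, whereas opn1mw3 and opn1mw4 had means of 0.263 and 0.01. The members of an array are alike in sequence, so a small level of a neighbour is uncertain.

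The list of the retinal pigment epithelium and Muller glia, which recycle retinoids, held 0.0643% ± 0.00756, and 0.0487% without rbp3. RNA of whole larvae does not show which cells rbp3 came from. The retinoid carrier gene rbp3 had 156 ± 9.24 TPM and RPE65, the isomerase that regenerates the chromophore, 124 ± 23.0.

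The list of neuron genes had a smaller share than the lens or the photoreceptor list, but the lists differ in number and choice of genes. The neuron list held 0.430%, 0.382% and 0.296% of TPM in Ctrl1, Ctrl2 and Ctrl3, and Ctrl3 was the lowest. It was led by the synuclein genes sncb and SNCG with means of 416 and 409.7 TPM and by SNAP25, a protein of vesicle fusion, at 248, 240.2 and 240.0 TPM. The glia and myelin list held 0.305% ± 0.0258. Its leading genes were ptgdsb.1 at 945 ± 145 TPM, FABP7, the fatty acid carrier of radial glia, at 602 ± 48.3, and GLUL, the glutamine synthetase of astroglia, with 309 ± 18.2 TPM for the higher of its copies.

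Organs of digestion and metabolism were present in every pool. The exocrine pancreas, which makes digestive enzymes, held 0.492%, 0.685% and 0.932% of TPM. Trypsin genes led, with prss1 at 836, 1077 and 1556 TPM. The islet list held 0.0129% ± 0.00277, with ins, the insulin gene, at 30.3, 43.6 and 62.7 TPM. Each of these measures was lowest in Ctrl1 and highest in Ctrl3.

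Liver genes held 0.552%, 0.523% and 0.700% of TPM. The mean share was 0.592%, and 0.397% without RBP4. RBP4, the plasma carrier of retinol, had 2012 TPM in Ctrl1, 1529.5 in Ctrl2 and 2303 in Ctrl3, with a mean of 1948 ± 391. RNA of whole larvae does not show which cells RBP4 came from. The gene fabp10a, of the liver-type fatty acid-binding protein, had 1687 ± 235 TPM. Transferrin (tfa) and serpina1, an inhibitor of neutrophil elastase, followed at 538 and 238 TPM. The intestine list held 0.281%, 0.345% and 0.435%. It was led by the fatty acid-binding protein genes FABP1, FABP2 and FABP6 at 1006 ± 364, 613 ± 191 and 515 ± 25.2 TPM, of which FABP6, the carrier of bile acids in the ileum, varied least.

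Lipid transport and yolk genes held 0.999% ± 0.121. Nearly all of it came from apolipoproteins, with apoa2 at 3310.2, 3541 and 4977 TPM and apoa1b at 2791, 2594 and 2664. The vitellogenin genes encode the yolk proteins that the mother deposits in the egg, and vtg4 and vtg5 were listed at 0 in all 3 pools.

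The body wall and skeleton were led by matrix genes. The epidermis list held 2.44% ± 0.268, and krt91 and icn followed cyt1 and krt4 at 3035 ± 242 and 2245 ± 499 TPM. Ionocytes, the salt-transporting cells of the skin, held 0.0236% ± 0.00491, with an ammonia channel gene (RHCG) at 51.8 ± 12.9 TPM. Bone and connective tissue held 0.179% ± 0.029 and was led by SPARC, a collagen-binding matrix protein, at 628 ± 116 TPM. The fibrillar collagen gene col1a1a had 303 ± 76.4 TPM. Cartilage held 0.113% ± 0.00636, the least variable of these shares in relative terms, with COL2A1, its main collagen, at 175 ± 22.6 TPM.

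Blood was dominated by larval globins. The erythrocyte list held 0.307%, 0.353% and 0.464% of TPM. The alpha globin gene hbae3 had 606, 744 and 959.9 TPM, and the highest of the beta-type genes named HBE1 had 618, 611 and 1045. Adult alpha globin genes were near 0, with means of 0.137 TPM for hbaa1 and 0.110 for hbaa2. Globin genes lie in arrays of near copies, and their division of reads is uncertain. The enzyme of haem synthesis alas2 had a mean of 8.56 TPM.

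Immune cells held little of the RNA. Myeloid genes held 0.0176% ± 0.00345, with the lysozyme gene lyz of neutrophils and macrophages at 87.9, 65.6 and 97.3 TPM. Lymphoid genes held 0.00356% ± 0.0011, but 0.000396% without TOX. Only 3 of 9 genes had a mean of at least 1 TPM. Of these, TOX is also expressed in the developing brain and had 31.6 ± 11.7 TPM. RAG1, which starts the rearrangement of antigen receptors, had 1.05, 1.14 and 1.64 TPM, and cd8a was listed at 0 in all pools.

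Small organs were still visible. Pigment cell genes held 0.0348% ± 0.00398, led by the melanin enzymes TYRP1 at 90.4 ± 12.4 TPM and DCT at 61.3 ± 11.0. The pronephros, the larval kidney, held 0.0169% ± 0.00183, and CDH17, its epithelial cadherin in zebrafish, had 33.1 ± 4.92 TPM. Ear and lateral line genes held 0.0337% ± 0.0039, and 0.0126% without s100t. The gene s100t had 211 ± 26.3 TPM and stm (starmaker), an otolith matrix protein, 49.4 ± 9.84. Endothelial genes held 0.0091% ± 0.00114, and pituitary hormones 0.00134% ± 0.000319, with growth hormone gene gh1 at 4.78 ± 1.88 TPM.

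Some lists of earlier or rare cells were near 0. None of 10 germ cell genes and none of 4 hatching gland genes had a mean of 1 TPM. The germ plasm gene DDX4 (vasa) had a mean of 0.633 TPM, and the hatching enzyme gene he1.1, which digests the egg envelope, 0.833. Depth is not kept by TPM, so how few reads lie behind these levels is unknown.

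**Figure D2:**
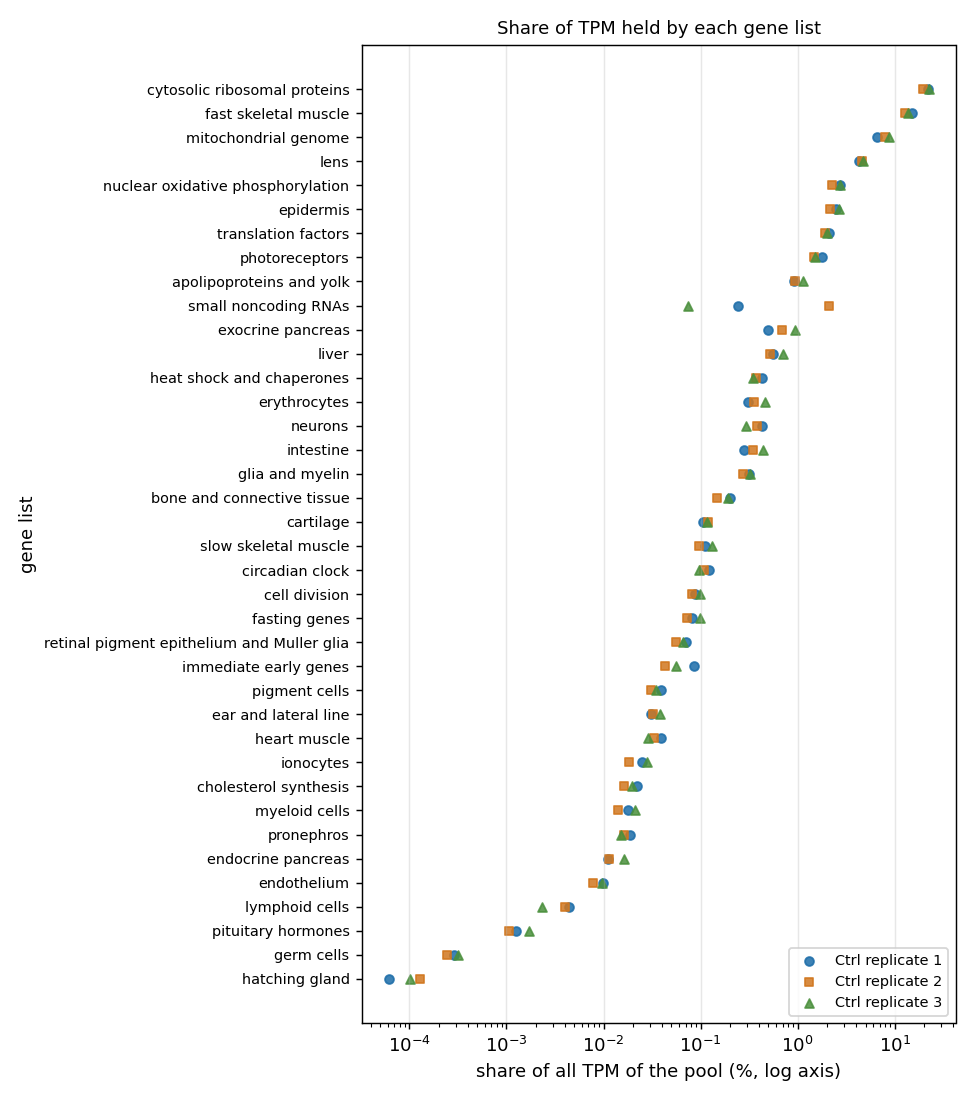
Share of all TPM of a pool (%, log axis) held by each of the 38 gene lists, with 1 symbol per pool, in order of the mean. Ribosomal proteins and fast muscle hold the most and hatching gland genes the least, and the small noncoding RNAs spread most between pools, from 0.0743% in Ctrl3 to 2.08% in Ctrl2.

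Genes of general functions gave a further outline of the baseline. Nuclear genes of oxidative phosphorylation held 2.59% ± 0.27 over 88 genes, led by atp5mc3b at 1397 ± 187 TPM. Genes of cell division held 0.0896% ± 0.00761, and 0.0466% without HMGB2, the most abundant member at 430 ± 57.2 TPM. PCNA, the sliding clamp of DNA replication, had 136 ± 23.98 TPM. Of the chaperone genes, HSPA8, the constitutive heat shock cognate, had 2390.2, 2036 and 1785 TPM, whereas the inducible hsp70.1 had 3.43, 2.69 and 1.71.

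Clock genes held 0.109% ± 0.0121 and were led by cry3a, a cryptochrome, at 178 ± 11.4 TPM. Genes that respond to fasting held 0.0839% ± 0.013. PDK2, which spares glucose by inhibiting pyruvate dehydrogenase, had 145 ± 34.1 TPM, and PCK1, the key enzyme of glucose production, 85.6 ± 2.70. Genes of cholesterol synthesis held 0.0194% ± 0.00299, with MSMO1 at 20.1 ± 3.92 TPM.

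To compare the pools gene by gene, each was divided by its median ratio to the others (factors 1.08, 0.951 and 1.00) and 0.1 TPM was added before taking log2. Of the 19207 genes whose mean reached 1 TPM, the median SD between pools was 0.232 log2 units. It was 0.30 for genes between 1 and 2 TPM and 0.145 for those of 1000 TPM or more. Ctrl1 and Ctrl2 were closest, with a median absolute difference of 0.161 log2 units and 428 genes at least 2-fold apart. Ctrl3 differed from Ctrl1 by 0.350 and from Ctrl2 by 0.313, with 1213 and 929 genes at least 2-fold apart. Without Ctrl3 the SD per gene, then over 2 pools and so not like for like with 0.232, had a median of 0.114. Across these genes, which share their libraries and are not replicates, Pearson's r of the log2 levels was 0.945 for Ctrl1 with Ctrl2, 0.942 for Ctrl1 with Ctrl3 and 0.927 for Ctrl2 with Ctrl3.

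The least variable of the 1530 genes whose mean reached 50 TPM belonged to varied functions. SCG5, a chaperone of the neuroendocrine secretory pathway, had 102, 89.3 and 93.6 TPM as deposited and an SD of 0.0055 log2 units after scaling. ALDH7A1, a lysine-degrading dehydrogenase, cnbpb, a nucleic acid-binding protein, HHATL and PIK3R1, the regulatory subunit of phosphoinositide 3-kinase, followed with SDs from 0.0060 to 0.0093. The other genes of the lowest 10 were atf4a, uqcrc2a, zgc:136930, a copy of PRPH2 and UBE2V2, with SDs up to 0.0132. The most abundant of the 10, zgc:136930, had 1021, 886 and 953 TPM.

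A gene was said to stand apart in a pool that was at least 2-fold above, or at least 2-fold below, both others. In Ctrl1, 70 genes stood above (0.364% of those examined) and 87 below (0.453%). In Ctrl2, 156 stood above (0.812%) and 51 below (0.266%). In Ctrl3, 39 stood above (0.203%) and 458 below (2.38%). The gene lists below are read against these shares, and what separates the pools was not tested.

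**Figure D3:**
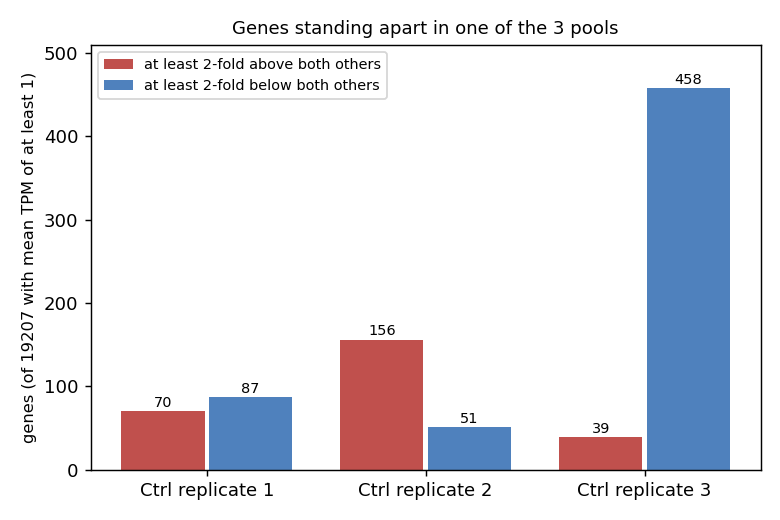
Number of genes, of 19207 with a mean of at least 1 TPM, that stand at least 2-fold above or below both other pools. The bar for genes below both others in Ctrl3 is the tallest with 458 genes, followed by those above both others in Ctrl2 with 156.

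Ctrl1 was marked by high immediate early genes. These encode transcription factors and regulators whose RNA appears within minutes of nerve activity, handling or growth signals. The list held 0.0857% of TPM in Ctrl1 against 0.0435% in Ctrl2 and 0.0563% in Ctrl3. Ctrl1 was the highest pool for 17 of 19 members, where it was highest for 32.7% of all genes examined. Its median deviation from the mean of the pools was 0.60 log2 units, against -0.35 in Ctrl2 and -0.20 in Ctrl3. At least 2-fold above both others stood 5 of 19 members, where 0.364% of all genes did. Not all of the 19 reached 1 TPM in every pool, and of the 16 members at or above 1 TPM in all 3 pools 3 stood above, where 0.149% of such genes did.

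FOSB, a partner of JUN in the AP-1 factor, had 10.7 TPM in Ctrl1, 1.27 in Ctrl2 and 0.850 in Ctrl3. FOSL1, of the same family, had 4.27, 0.440 and 0.430 TPM, and passed the filter at a mean of 1 TPM through Ctrl1 alone. The zinc finger factor egr2a had 5.98, 1.79 and 2.21 TPM. EGR3 had 4.04, 1.6 and 1.4, and the lower of the JUNB copies had 40.4, 12.9 and 18.2. These were the members that stood at least 2-fold above both others, so their distance from Ctrl2 and Ctrl3 follows from that choice. More abundant members were also highest in Ctrl1 without reaching 2-fold over both others, such as FOS with 119.7 TPM against 40.9 and 67.3, DUSP1, a phosphatase of MAP kinases, with 89.8 against 48.7 and 66.5, and egr1 with 71.7 against 41.8 and 36.6.

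Outside the list, genes are named from those that stood above in Ctrl1, after their values were seen. Their direction follows from that choice. SIK1, a kinase induced by cyclic AMP, had 40.4, 14.2 and 14.2 TPM. JDP2, a repressor that pairs with JUN, had 22.1, 4.05 and 7.23 TPM. CCN1, a matrix protein encoded by a growth factor-induced gene, had 11.7, 4.08 and 4.84 TPM, and the adaptor gene NCK2 had 11.0, 3.00 and 2.58.

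Ctrl1 was also low in genes of the digestive glands. All 29 exocrine pancreas genes that passed the 1 TPM filter were lowest in Ctrl1, and 28 were highest in Ctrl3, where 31.6% of all genes were lowest in Ctrl1 and 41.2% highest in Ctrl3. The median deviation of the list was -0.65 log2 units in Ctrl1, 0.10 in Ctrl2 and 0.54 in Ctrl3. At least 2-fold below both others stood 6 of 29 in Ctrl1, where 0.453% of all genes did. Without scaling 1 of 29 stood below, while the median in Ctrl1 was -0.55. The chymotrypsinogen gene ctrb.1 had 354, 703 and 822 TPM. The elastase gene cela1.3 had 2.17, 4.88 and 6.50 TPM, and PLA2G1B, the pancreatic phospholipase, had 3.44, 6.54 and 9.11. The bile salt-activated lipase CEL had 13.3, 24.97 and 36.8 TPM in its higher copy. The acinar transcription factor PTF1A was the member that was not highest in Ctrl3, at 1.46, 2.07 and 1.71 TPM.

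Liver and apolipoprotein genes lay the same way after scaling, at smaller sizes. Of 39 liver genes 36 were lowest in Ctrl1, and their median deviations were -0.36, 0.03 and 0.36 log2 units in Ctrl1, Ctrl2 and Ctrl3. Of 12 apolipoprotein and yolk genes 11 were lowest in Ctrl1, with medians of -0.31, 0.04 and 0.31. These counts rest on the scaling. As deposited, the liver share was lowest in Ctrl2, at 0.523% against 0.552% in Ctrl1. Of the 4 most abundant apolipoprotein genes as deposited, apoa2 and apoc1 were lowest in Ctrl1, whereas apoa1b and apoa1a were highest there. The intestine list had medians of -0.18, 0.00 and 0.22, and 1 of its 31 members stood below in Ctrl1, the chitinase gene chia.3 with 2.01, 5.71 and 5.76 TPM. No member of the liver list or of the apolipoprotein and yolk list stood 2-fold apart. Of 7 islet genes 5 were lowest in Ctrl1, but SST, a somatostatin gene, was highest there, with 37.9, 26.9 and 23.8 TPM. The lens list was lowest in Ctrl1 for 51 of 62 genes, but by a median of only -0.19 log2 units.

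Fast muscle as a list was not low in Ctrl1, with a median of 0.08 log2 units and 24 of 51 genes highest in that pool. The heart list had a median of -0.30 there, with 8 of 11 genes lowest and 3 highest. Slow muscle had a median of -0.16 there after scaling, with 6 of 8 genes lowest, where 31.6% of all genes were lowest in Ctrl1. As deposited, the slow muscle share was lowest in Ctrl2, at 0.0955% against 0.11% in Ctrl1 and 0.13% in Ctrl3. Single muscle genes stood below in Ctrl1. A copy of TNNI2, a fast troponin I, had 26.1, 49.5 and 78.9 TPM, and myl4, a light chain of the heart list, had 5.59, 10.9 and 15.8. These were 1 of 51 fast muscle genes and 1 of 11 heart genes, and without scaling neither stood apart. Outside the lists, TPM4 had 16.4, 37.0 and 50.7 TPM, and APOD, a lipocalin that carries small lipids, had 85.7, 157 and 252. The fast myosin gene myhz1.1l had 28.9, 71.0 and 64.7 TPM. The mitochondrial gene mt-atp8 was the 1 of 13 of its list to stand below, 4.07-fold under the lower of the other pools.

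**Figure D4:**
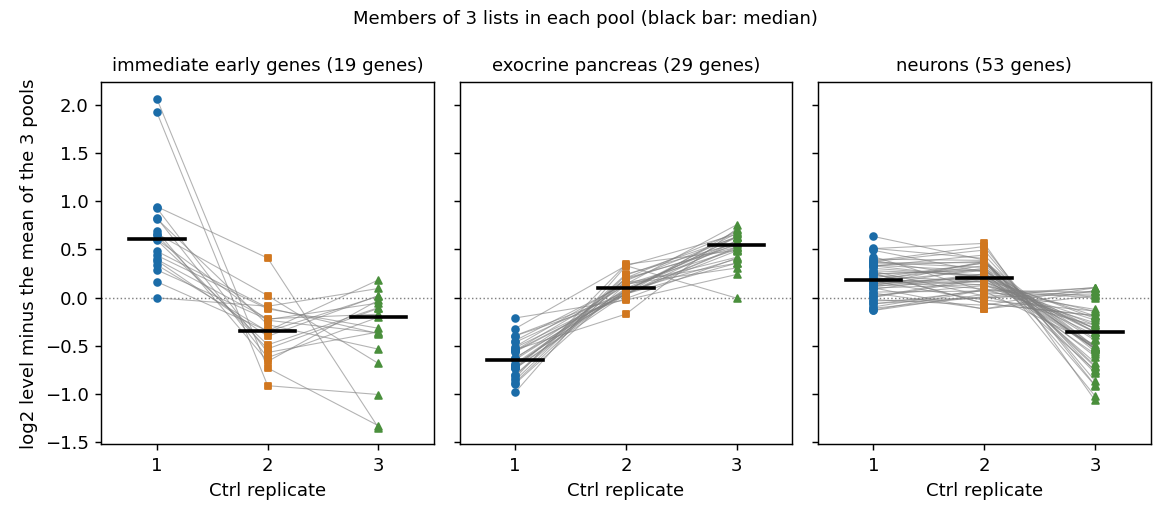
Deviation of each gene from the mean of the 3 pools (log2 units) in Ctrl replicates 1, 2 and 3 for the 19 immediate early genes, 29 exocrine pancreas genes and 53 neuron genes, with grey lines joining the values of a gene and a black bar at the median. The medians are 0.60 for immediate early genes in Ctrl1, -0.65 for exocrine pancreas in Ctrl1 and -0.36 for neurons in Ctrl3.

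Ctrl2 was marked by RNAs that carry no poly(A) tail. Small nuclear and small nucleolar RNAs splice and modify other RNAs, and the 5S and 5.8S RNAs are parts of the ribosome. Per the labels the libraries were made after capture of poly(A) RNA, so these classes were not the target. The list held 0.244% of TPM in Ctrl1, 2.08% in Ctrl2 and 0.0743% in Ctrl3. Of its 108 members with a mean of at least 1 TPM, 78 stood at least 2-fold above both others in Ctrl2, which is 78 of the 156 genes that did so. Most of the 108 were below 1 TPM in at least 1 pool, and of the 31 at or above 1 TPM in all 3 pools 20 stood above, where 0.276% of such genes did. The spliceosomal U1 feature of highest level had 62.7, 3931 and 25.4 TPM, and a U2 feature had 21.1, 546 and 32.4. The 7SK RNA (rn7sk), which holds back transcription elongation, had 38.8, 364 and 48.0 TPM.

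Other features outside the list did the same. The feature zgc:158463, which RefSeq annotates as ribosomal RNA, had 1872 TPM in Ctrl1, 16120.2 in Ctrl2 and 2107 in Ctrl3. The signal recognition particle RNA rn7sl1 had 146, 2256 and 213 TPM. Features si:dkey-153m14.1 and ENSDARG00000111458 had 15447 and 12929 TPM in Ctrl2, against 2906 and 2035 in Ctrl1 and 2647 and 2216 in Ctrl3. The feature si:dkeyp-3b12.15 was listed at 0 in Ctrl1 and had 17315 TPM in Ctrl2 and 522 in Ctrl3. Together the 4 features zgc:158463, si:dkey-153m14.1, ENSDARG00000111458 and si:dkeyp-3b12.15 held 0.681%, 6.18% and 0.749% of TPM. All genes above both others in Ctrl2 held 9.70% there, against 1.14% in Ctrl1 and 1.03% in Ctrl3.

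TPM sums to a fixed total, so the share of these features is taken from all other levels of Ctrl2 as deposited, and levels were rescaled before genes were compared. Repeat copies add a second limit. Both copies of the 5_8S_rRNA feature had 687, 2474 and 0 TPM in Ctrl1, Ctrl2 and Ctrl3, and of 19 genes averaging 5 TPM or more whose 3 values equalled those of another gene, 12 were small noncoding RNAs, so the level of a single copy cannot be read.

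Of the 30 genes with the widest gaps, 5 for each pool and direction, 27 were listed at 0 in at least 1 pool and 17 were small noncoding RNAs. Of those below in Ctrl2, 2 were listed at 0. Examples are a Y_RNA feature with 63.6 TPM in Ctrl1 and 0 in both others, a U4 feature with 376 TPM in Ctrl2 and 0 in both others, and SNORA75 with 25.2 TPM in Ctrl3 and 0 in both others. In Ctrl2 88 of the 156 genes standing above were listed at 0 in some pool.

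Below both others in Ctrl2 stood 51 genes (0.266% of those examined), of which 10 had no symbol and 24 a name beginning with si: or zgc:. The gene hamp, which encodes hepcidin, the liver hormone of iron balance, had 11.9, 4.07 and 10.15 TPM and was 2.33-fold below the lower of the others. Below both others were also echdc3 with 5.56, 2.29 and 7.88 TPM and zgc:171775 with 13.1, 5.49 and 13.4. No member of any list stood below in Ctrl2.

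Ctrl3 was low in nerve cell genes. Of 53 neuron genes 43 were lowest in Ctrl3, where 43% of all genes examined were lowest. At least 2-fold below both others stood 10 of 53, where 2.38% of all genes did. The median deviation was 0.18 log2 units in Ctrl1, 0.20 in Ctrl2 and -0.36 in Ctrl3. The neuronal sodium pump gene atp1a3a had 124, 113 and 38.4 TPM, and atp1a3b had 58.0, 47.3 and 19.9. The synaptic vesicle gene SV2A had 54.5, 40.3 and 15.9 TPM. SYT1, the calcium sensor of release, had 115, 101 and 50.3 TPM. The neuronal RNA-binding protein genes ELAVL3 and ELAVL4 had 36.6 and 36.2 TPM in Ctrl3, against 93.9 and 88.9 in Ctrl1 and 70.4 and 77.3 in Ctrl2.

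The list was not uniformly low in Ctrl3. Its most abundant genes after sncb differed little, with SNCG at 428, 384 and 417 TPM, the higher copy of SNAP25 at 248, 240.2 and 240.0, and GNG3, a neuronal G protein subunit, at 138, 132 and 149. The synuclein gene sncb had 502, 421 and 325 TPM. CHAT, the acetylcholine synthase, lay close too, at 21.4, 19.6 and 21.7 TPM, and so did CPLX2 at 15.1, 14.9 and 16.6. The widest gap of the list was in atp1a3a, 2.99-fold under the lower of the other pools after scaling.

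Genes outside the list were also among the 458 that stood below in Ctrl3. Those named here were picked from them after their values were seen. The most abundant protein-coding ones of the 458 were tuba1c, a tubulin of growing neurons, at 639, 514 and 256 TPM and ALDOC, the brain aldolase, at 354, 308 and 154. NDRG4 had 159, 129.6 and 59.5 TPM. SPTAN1, the spectrin of the cortical cytoskeleton, had 132, 128 and 57.8, and NSF, which takes apart used fusion complexes, had 111, 95.7 and 44.8. CLTC, the clathrin heavy chain that coats vesicles, had 56.6, 46.2 and 24.1. The low level of these genes in Ctrl3 follows from that choice and is no separate support for the neuron list. The astroglial glutamate transporter gene SLC1A2 had 136, 139 and 61.8 TPM. With HEPACAM, an adhesion protein of astroglia, it made 2 of 26 glia genes that stood below in Ctrl3. The share of all genes was 2.38%. HEPACAM had 2.74, 1.98 and 0.75 TPM. Of the 25 glia genes at or above 1 TPM in all 3 pools, 1 stood below in Ctrl3. The median of the glia list was -0.01 in that pool. Of 58 photoreceptor genes 1 stood below in Ctrl3, and their median was -0.07.

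Families set by the letters of the gene symbol gave a view that does not rest on the lists. There were 176 families of at least 12 genes, examined after the differences had been seen, and those named were picked for their values. In Ctrl3 the median was at or below -0.3 log2 units in 19 families and at or above 0.3 in 2. The 19 were not all neural. They included the small nucleolar RNA family snora, at -1.87 in both Ctrl1 and Ctrl3, and also cnot at -0.343 and dock at -0.335. The counts of all families are read against the 43% of all genes that were lowest in Ctrl3 and the 41.2% that were highest. All 12 genes of the NMDA receptor family grin were lowest in Ctrl3, with a median of -0.59 log2 units there and 0.25 and 0.34 in Ctrl1 and Ctrl2. The voltage-gated calcium channel family cacna had 21 of 24 genes lowest in Ctrl3 and a median of -0.54, and the synaptotagmin family syt had 17 of 22 and -0.39. Adhesion and guidance families lay alike, with 45 of 50 protocadherin genes (pcdh) lowest in Ctrl3 at a median of -0.35, 14 of 20 cadherins (cdh) at -0.49 and 22 of 28 semaphorins (sema) at -0.36. All 15 lipoprotein receptor-related genes (lrp) were lowest in Ctrl3 at a median of -0.48, and so were 20 of 21 histone demethylase genes (kdm) at -0.42, which are not confined to nerve cells.

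Other families were highest in Ctrl3, including some with synaptic members. The syntaxins (stx) had 15 of 20 genes highest there at a median of 0.19 log2 units. The genes named as cerebellins (cbln), some of which organise synapses, had 9 of 15 at 0.23. The glucuronosyltransferase family ugt, which conjugates steroids, bilirubin and foreign compounds, had 21 of 23 genes highest there at a median of 0.34. Hydroxysteroid dehydrogenases (hsd) had 11 of 12 at 0.34, sulfotransferases (sult) 11 of 14 at 0.26 and cytochromes P450 (cyp) 45 of 60 at 0.24. Annexins (anxa) had 13 of 16 at 0.23. The mitochondrial ribosomal protein families mrps and mrpl had 26 of 28 and 40 of 47 genes highest there, at medians of 0.16 and 0.17. None of the genes of these families stood 2-fold above both others in Ctrl3.

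The 39 genes that did stand above in Ctrl3 held few known groups. BIN3, which shapes the actin cortex, had 6.34, 6.83 and 20.5 TPM, and nav2b, a neuron navigator gene, had 3.41, 3.2 and 12.03. The acute phase gene apcs had 7.72, 6.12 and 14.8 TPM. The feature si:dkey-15h8.16 had 2.78, 5.99 and 29.9 TPM, so that all 3 pools differed. Besides 5 small noncoding RNAs, no list member stood above in Ctrl3.

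Single members of further lists stood below in Ctrl3, where 2.38% of all genes did. They included the clock genes CLOCK with 6.48, 5.14 and 2.52 TPM and nr1d4a with 1.59, 1.2 and 0.5, the hair cell gene OTOF, whose protein triggers synaptic release in the ear, with 14.6, 10.4 and 5.07, and TOX with 40.4, 36.1 and 18.4. These were 2 of 35 clock genes, 1 of 13 ear and lateral line genes and 1 of 3 lymphoid genes, counts too small to read against that share. Of 35 clock genes 25 were lowest in Ctrl3, against 43% of all genes, and without scaling 1 stood below. The lower copy of NPAS4, an activity-dependent neuronal factor, was 1 of 19 immediate early genes and had 2.18, 1.29 and 0.330 TPM.

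**Figure D5:**
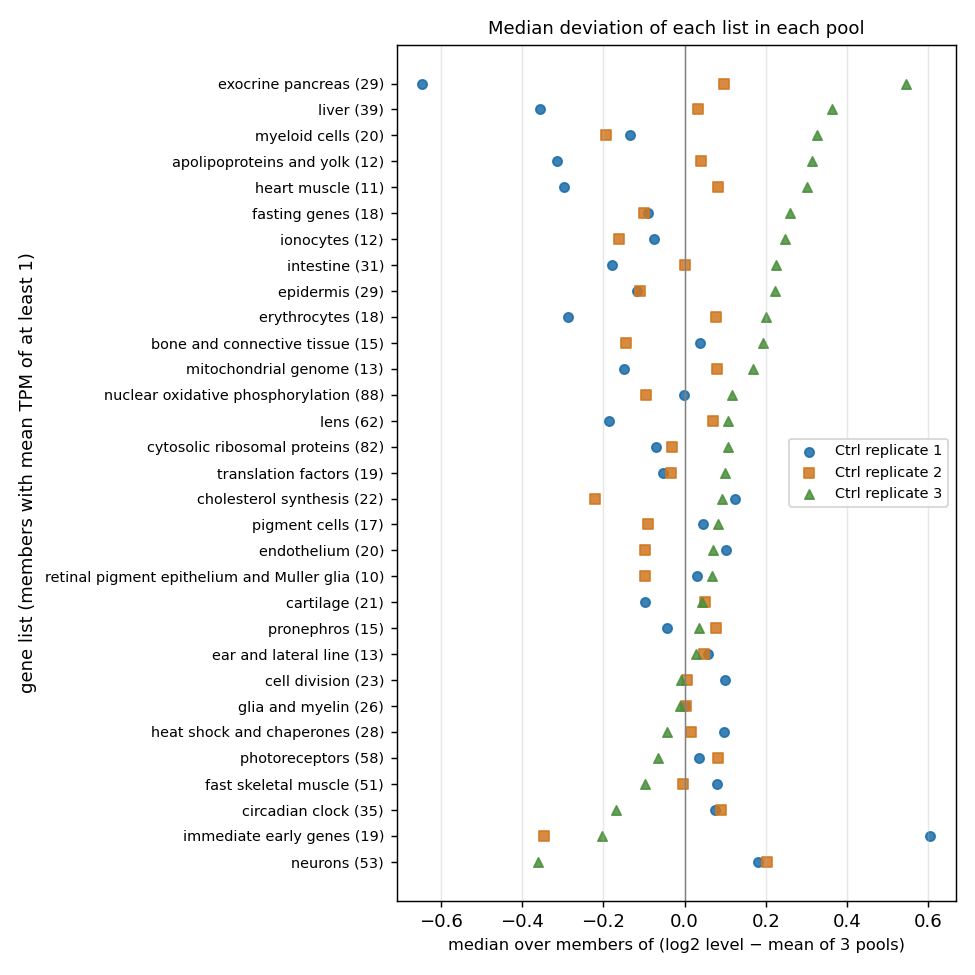
Median over the members of each list of the log2 level minus the mean of the 3 pools, for lists with at least 10 members at a mean of 1 TPM, in order of Ctrl3 (number of genes in brackets). Exocrine pancreas spans from -0.65 in Ctrl1 to 0.54 in Ctrl3, immediate early genes are high in Ctrl1 alone, and neurons are low in Ctrl3 alone.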

How the data were processed

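Only the 3 Ctrl columns were used. The 6 columns of microinjected pools were left out of every step. The authors prepared stranded poly(A) libraries, trimmed the reads and deposited TPM values per Ensembl gene to 2 decimals. Per the labels' processing notes, STAR, RSEM and GRCz11 were named. TPM keeps no depth, and no read counts were used. Symbols came from a table of gene names (29201 of 32520 genes), some of them of the human match and shared by copies. RefSeq GRCz12tu served for names and gene types only.

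Levels and shares are deposited TPM. For pool differences, genes whose mean reached 1 TPM were divided by median-ratio factors and log2(TPM + 0.1) was taken, which understates differences of low genes. A gene stands apart when a pool is at least 2-fold above or below both others. No test was run. The code of these steps was checked on simulated data with shifts larger than 2-fold and less spread than here (Python 3.11.15). That check does not measure how many genes stand apart falsely in these data.

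Genes named are the 30 most abundant, the 4 highest of each list and members at 0, the 5 widest gaps per pool and direction, the 10 least variable at 50 TPM or more, and the 4 widest gaps in lists above 2 times the share of all genes. Other genes named were chosen after their values were seen. For the widest gaps, single examples are given, and some genes that the rule takes are not reported here. The members, lists and rules were chosen with earlier results of these data known. Of 758 list entries, 43 matched no gene or were ambiguous. The replicates are separate pools, and nothing says that they came from separate spawnings.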

Additional observations from a re-analysis of the deposited data

How the results depend on the processing

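The number of genes at or above 1 TPM in all 3 pools was 18143, and with a limit of 5 TPM it was 10154. It lay between 18313 and 18557 when a pool was left out. The 10 most abundant genes held 14.7% of TPM, 13.2% with mitochondrial and small noncoding genes left out, and 14.4% to 15.0% without a single pool. For the 100 most abundant genes these values were 46.7%, 45.3%, and 46.4% to 47.4%. The median SD over the 3 pools was 0.232 log2 units. With a pool left out it lay between 0.114, without Ctrl3, and 0.247, without Ctrl2. Those are SDs of 2 values, whose median tends to be lower than that of SDs of 3, so they are not like for like with 0.232. Counts of genes standing apart could not be had with a pool left out, since they need all 3. In the order Ctrl1 above, Ctrl1 below, Ctrl2 above, Ctrl2 below, Ctrl3 above and Ctrl3 below, they were 70, 87, 156, 51, 39 and 458. Under a 1.5-fold limit they were 264, 382, 244, 245, 423 and 2323, and under a 3-fold limit 27, 29, 135, 20, 13 and 53. A filter at a mean of 5 TPM gave 21, 34, 92, 6, 8 and 250, no filter gave 325, 338, 457, 256, 347 and 662, and a pseudocount of 1 gave 39, 44, 141, 16, 14 and 154. Quantile normalization gave 67 above and 304 below in Ctrl3. Alternatives chosen after seeing the data were genes at or above 1 TPM in all pools, overall and within lists, with overall counts of 27, 45, 50, 13, 15 and 350, and leaving out small noncoding RNAs, with 78 above in Ctrl2. Genes below in Ctrl3 were thus the largest of the 6 counts under each of these settings except the 3-fold limit, where genes above in Ctrl2 were. No median of a list whose size was at least 0.3 log2 units changed its sign under another scaling or pseudocount. Without its most abundant member the share of 30 of 38 lists moved by more than the SD between pools. No paired analysis was possible because there was a single group.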
